A study of Caenorhabditis elegans with 2 samples.

Results

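Among 4944 NHR-23 peaks in Caenorhabditis elegans larvae, 875 (17.7%) were strong in replicate 2 and not in replicate 1. They were chosen by the replicates' own signal. The summit, the peak's highest point, had to lie inside one of the 4944 strongest peaks of replicate 2 and inside none of the 4944 strongest of replicate 1. Of the other thresholded peaks, 3332 were strong in both replicates and are called shared, 610 were strong in replicate 1 only and 127 in neither. The 875 occupied 875 separate intervals. Chromatin immunoprecipitation with sequencing was done on whole L3 larvae, pooled male and female, of strain OP43, which carries unc-119(ed3) III and the integrated transgene wgIs43. The immunoprecipitated protein was NHR-23 tagged with eGFP, so the peaks are those of a tagged protein in a transgenic strain, and whole animals mix all tissues. The labels give 2 biological replicates in 1 group and an unknown age beyond the stage. They name a control, which is not used here.

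NHR-23 belongs to the ROR family of nuclear hormone receptors, and larvae need it in order to molt. Receptors of this family bind DNA at a site whose core reads AGGTCA. At each molt the epidermis secretes a new cuticle of collagens, cuticlins and matrix proteins, and genes for these rise and fall with the molting cycle. Rules for calling peaks weigh how far replicates rank the same places highly, which is why peaks ranked highly in 1 replicate alone are described on their own here.

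The sequences around the strongest summits show what kind of DNA these peaks sat on. They are read from the RefSeq genome on ce11 (WBcel235), plus strand, 101 bases centred on the summit. The first pair are those of the 4 strongest members without the repeat GAGAGA in the window, and the capital marks the summit base.

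irld-18, chrIV:14594336-14594436: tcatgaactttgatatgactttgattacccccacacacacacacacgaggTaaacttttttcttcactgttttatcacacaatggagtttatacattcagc
nurf-1, chrII:14405405-14405505: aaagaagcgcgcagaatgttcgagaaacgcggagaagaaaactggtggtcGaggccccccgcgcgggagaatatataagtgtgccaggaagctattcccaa

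The next set holds the strongest members with GAGAGA within 50 bp of the summit, and capitals mark GAGAGA or its complement TCTCTC. The noah-2 window opens with a run of the repeat, while sup-26 and let-653 each hold 1 copy near the window's end.

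sup-26, chrIII:4282355-4282455: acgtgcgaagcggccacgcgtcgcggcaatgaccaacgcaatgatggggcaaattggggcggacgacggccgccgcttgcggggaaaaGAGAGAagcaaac
noah-2, chrIV:14089913-14090013: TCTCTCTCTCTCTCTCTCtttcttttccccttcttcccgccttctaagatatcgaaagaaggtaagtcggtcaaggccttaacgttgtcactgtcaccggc
let-653, chrIV:11883582-11883682: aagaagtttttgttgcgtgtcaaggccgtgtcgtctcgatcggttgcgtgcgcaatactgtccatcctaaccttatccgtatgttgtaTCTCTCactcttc

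The third set holds high-ranking members with the receptor core site AGGTCA, marked in capitals together with its complement TGACCT. Not every chromosome was drawn on for the printed windows, so stronger members with the site may exist.

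zmp-2, chrIII:2638423-2638523: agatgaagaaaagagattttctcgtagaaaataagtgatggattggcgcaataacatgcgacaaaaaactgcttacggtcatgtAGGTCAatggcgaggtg
F45D3.2, chrV:12536785-12536885: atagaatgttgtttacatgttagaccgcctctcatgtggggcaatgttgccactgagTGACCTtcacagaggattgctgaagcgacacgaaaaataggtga
mltn-8, chrV:378401-378501: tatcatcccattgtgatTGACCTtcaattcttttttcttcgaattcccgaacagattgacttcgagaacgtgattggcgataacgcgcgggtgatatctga

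The last set holds high-ranking members with GATAA, the core bound by GATA factors, among those whose interval no strong replicate 1 peak overlapped. The same limit on the chromosomes drawn on holds for it. Capitals mark GATAA or TTATC. This set was added after the motif shares were seen.

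nlp-33, chrV:11147855-11147955: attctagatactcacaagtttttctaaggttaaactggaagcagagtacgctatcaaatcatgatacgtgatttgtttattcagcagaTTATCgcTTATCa
oac-46, chrII:8854075-8854175: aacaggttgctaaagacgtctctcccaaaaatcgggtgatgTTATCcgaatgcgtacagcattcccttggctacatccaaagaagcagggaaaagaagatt
str-144, chrV:8073295-8073395: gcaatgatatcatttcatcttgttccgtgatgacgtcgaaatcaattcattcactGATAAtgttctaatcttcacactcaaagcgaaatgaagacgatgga
B0334.20, chrII:11502171-11502271: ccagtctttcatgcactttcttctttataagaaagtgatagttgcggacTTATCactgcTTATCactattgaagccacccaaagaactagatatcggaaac

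Most members were moderately ranked in replicate 2 and lower, not absent, in replicate 1. Their replicate 2 signal, the authors' value per peak, ran from 20.5 to 159 with a median of 29.9, and their median rank in that list was 3133. In replicate 1, 789 members had a peak over the summit, with a median signal of 13.7 (4.0 to 17.8) and a median rank of 6944. These values chose the members and are given as a description. Replicate 1 had 239 members (27.3%, exact 95% interval 24.4 to 30.4) within 1000 ranks below its threshold, and 168 (19.2%, 16.6 to 21.97) beyond rank 10000. The name therefore holds as a statement about rank thresholds, and less as one about presence. In the pooled list of both replicates the members' median rank was 3929, against 1714 for shared peaks, so the 2 classes lie at different strengths. Intervals throughout cover counting error only, and neighbouring peaks are not independent.

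**Figure D1:**
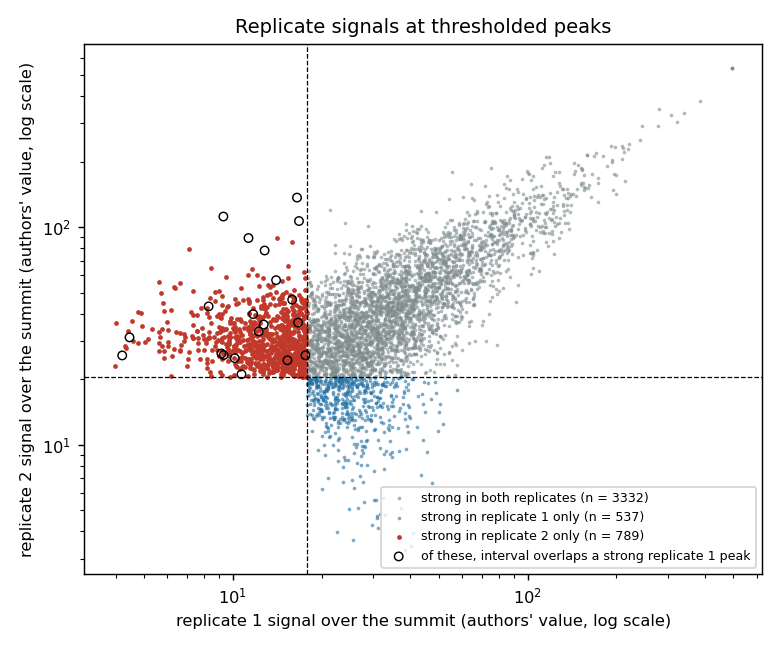
Authors' signal of the strongest peak over each thresholded summit in replicate 1 (x) and replicate 2 (y), log axes; dashed lines are the lowest signals among each replicate's 4944 strongest peaks. The 789 red points left of the vertical line are members with a replicate 1 peak over the summit, and circles mark those whose interval overlaps a strong replicate 1 peak; the 86 members with no replicate 1 peak there cannot be drawn.

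A small part of the members owed their membership to where the summit fell. In 55 members (6.29%, 4.77 to 8.10) the interval overlapped a strong replicate 1 peak that stopped short of the summit, and the median gap was 36 bp. These 55 are called edge members and the other 820 (93.7%) clear members. Edge members took 13 of the 20 highest replicate 2 ranks and 22 of the 100 highest. Of the 86 members with no replicate 1 peak over the summit, 35 were edge members, so the missing peak was often beside the summit.

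The very strongest members were edge members near genes of several kinds. At irld-18, a member of the insulin and EGF receptor L-domain family, the replicate 2 signal was 159 (rank 61); no replicate 1 peak covered the summit, yet a strong one with signal 78.2 (rank 324) ended 16 bp away. This summit lay 13347 bp upstream of the nearest annotated start, the longest upstream distance of any member. At noah-2, which encodes an apical matrix protein needed for molting, the values were 106.6 in replicate 2 and 16.8 in replicate 1, with a strong replicate 1 peak of 76.9 ending 21 bp away. At let-653, a mucin-like protein of the precuticle, the replicate 2 signal was 82.7 and a strong replicate 1 peak of 80.1 ended 4 bp from the summit. In each of these, both replicates held a strong peak at the place. The same holds for dmd-7, of the doublesex-related DM family (100.2, gap 15 bp), epc-1, an Enhancer of Polycomb homologue (92.7, gap 8 bp), and mak-1, a MAP kinase-activated kinase (77.1, gap 3 bp). It also holds for the ubiquitin ligase gene eel-1 (64.2, gap 74 bp), for drap-1 (84.3, gap 89 bp) and for brp-1 (69.4, gap 82 bp). Genes are named by the nearest start, which can be far. The summits named for brp-1, let-653 and mak-1 lay 4721, 1981 and 1882 bp upstream of it. Those named next for rho-1 and sup-26 lay 3639 and 2181 bp upstream. All of these are outside the promoter windows described below. At sup-26, an RNA-binding protein, nurf-1, a chromatin remodelling subunit, osm-11, a secreted Notch co-ligand, and the small GTPase gene rho-1, the members ranked far lower in the pooled list, at 3301, 3633, 1364 and 4141, than in replicate 2, at 109, 182, 377 and 529. Their replicate 2 signals of 136.6, 111.8, 89.1 and 78.1 belong to the strongest record over the summit, whose own highest point lay 226, 223, 80 and 143 bp away. At sup-26 and nurf-1 a second record with a nearer summit had 63 and 39.2. Over all members this distance had a median of 8 bp and exceeded 50 bp in 69.

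Clear members with a high replicate 2 signal were fewer. Only 29 members reached the first 1000 ranks of replicate 2, and 13 of these were clear. The highest was near nspe-8, with a signal of 88.8 in replicate 2 and 14.2 in replicate 1 (rank 6680), 404 bp upstream of the start. At kel-3, a kelch-repeat gene, the signals were 85.7 and 15.9. They were 79.4 and 7.09 at the summit named for W06H8.6, 2681 bp upstream of the start. W06H8.6 stood at rank 505 in replicate 2 and 16023 in replicate 1, but its pooled rank was 4182 (signal 39.9), and the highest point of the replicate 2 record lay 87 bp from the summit.

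Some clear members lay near developmental and cuticle genes. In mlt-9, a gene needed for molting, an intronic summit 2473 bp downstream of the start had 64.9 in replicate 2 and 8.41 in replicate 1. At col-176, a cuticle collagen gene, the summit 49 bp upstream of the start had 60.5 and 11.3. At tra-4, a zinc finger gene of sex determination, the summit 37 bp upstream had 64.1 and 11.6. At mlt-9 the replicate 1 rank was 12965, beyond those of tra-4 (8592) and col-176 (8889). For K10C3.4 the values were 66.5 and 15.4. For oac-46, an O-acyltransferase homologue, they were 60.1 and 12.1 at a summit 2029 bp upstream. For cbl-1, a cystathionine beta-lyase, they were 62.3 and 17.4 at a summit 3078 bp downstream.

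A further 51 clear members had no replicate 1 peak over the summit at all. The strongest was at mxl-3, which encodes a Max-like transcription factor, with a replicate 2 signal of 71.7 at a summit 2194 bp downstream of the start. Next came nlp-33, an antimicrobial peptide gene (60.1, with a replicate 2 rank of 954 and a pooled rank of 3226), and mre-11, a DNA repair nuclease (59.7), 55 bp upstream of its start. The nearest strong replicate 1 peak was 275 bp from the nlp-33 summit, 682 bp from that of mxl-3 and 6942 bp from that of mre-11. Over all 875 members, 26.9% of summits lay within 1000 bp of a strong replicate 1 peak and the median distance was 2907 bp. At T28F4.5, by contrast, a strong replicate 1 peak ended 2 bp from the summit.

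Values near the thresholds were almost continuous. The weakest members in replicate 2 were ttc-36 (20.5, rank 4942), C31E10.5 (20.5, rank 4940) and R12C12.7 (20.5, rank 4934). Just outside lay unc-108 (20.4, rank 4966), gpdh-2 (20.4, rank 4974) and sms-3 (20.3, rank 4983). On the replicate 1 side, members near R102.6, sel-9 and soc-2 had 17.8 at ranks 4946, 4952 and 4963, while the shared peaks near chil-24, toh-1 and lit-1 had 17.8, 17.8 and 17.9 at ranks 4941, 4939 and 4933. A peak's class thus turned on differences in the last digit at both lines.

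The members lay less often at promoters than shared peaks did. A promoter window here runs from 1500 bp upstream to 500 bp downstream of an annotated start of a protein-coding transcript. It held 524 of 875 member summits (59.9%, 56.6 to 63.2) and 2227 of 3332 shared summits (66.8%, 65.2 to 68.4), a difference of -6.95 percentage points (95% Newcombe interval -10.6 to -3.37). Peaks strong in replicate 1 only had 59.2%, and the members were 0.71 points from them (-4.34 to 5.78). Among peaks with pooled ranks from 3247 to 4438, the interquartile range of the members, 262 of 437 members (59.95%) and 221 of 381 shared peaks (58.0%) lay in a window, so the difference turned to 1.95 points (-4.78 to 8.68).

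Within genes, coding sequence was the location with the widest relative gap. It held 42 member summits (4.80%, 3.48 to 6.43), 69 shared ones (2.07%, 1.62 to 2.61) and 39 of those strong in replicate 1 only (6.39%, 4.59 to 8.64). The difference from shared peaks was 2.73 points (1.39 to 4.41) over all ranks and -0.15 points (-3.21 to 2.79) within the members' middle ranks. Within like ranks the intervals of both the promoter and the coding difference include 0. Other locations differed there: 5′ UTRs held 7.09% of members and 3.15% of shared peaks, a difference of 3.94 points (0.88 to 7.05), and exons of non-coding transcripts and pseudogenes 5.72% and 9.97%, a difference of -4.25 points (-8.13 to -0.57).

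Most members, as most shared peaks, lay between genes. Intergenic summits made up 59.0% of members (516 of 875) and 63.5% of shared peaks. Introns or other unannotated parts of genes held 22.6% and 20.5%, 5′ UTRs 5.26% and 3.84%, 3′ UTRs 2.40% and 1.59%, and exons of non-coding transcripts and pseudogenes 5.94% and 8.49%. The nearest start lay downstream of the summit for 69.0% of members, 75.7% of shared peaks and 63.1% of those strong in replicate 1 only. Within the members' middle ranks it did so for 65.2% of members and 66.7% of shared peaks, a difference of -1.45 points (-7.90 to 5.06). The median member summit was 163 bp upstream of its start, and 38 members (4.34%) were over 5000 bp from any start.

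Along the genome the members were spread much as shared peaks were. Each autosome held 13.6% to 17.5% of the members, and chromosome X 17.9% (15.5 to 20.7) against 20.6% of shared peaks, a difference of -2.65 points (-5.43 to 0.35). The central 50% of each chromosome together held 63.3% of member and 61.5% of shared summits. In 42 members (4.80%) another thresholded summit lay within 500 bp, against 3.42% of shared peaks. The intervals of these last 3 differences include 0.

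**Figure D2:**
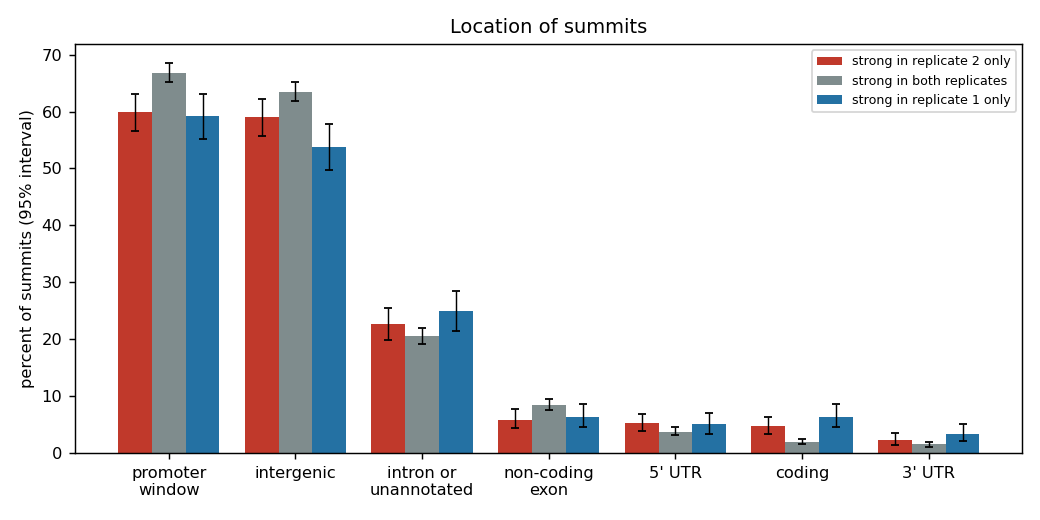
Percent of summits (y) at each location (x) for the 875 members, 3332 shared peaks and 610 peaks strong in replicate 1 only; bars start at 0 and lines are exact 95% intervals. Promoter windows overlap the other locations, and they held 59.9%, 66.8% and 59.2% of the classes in that order.

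**Figure D3:**
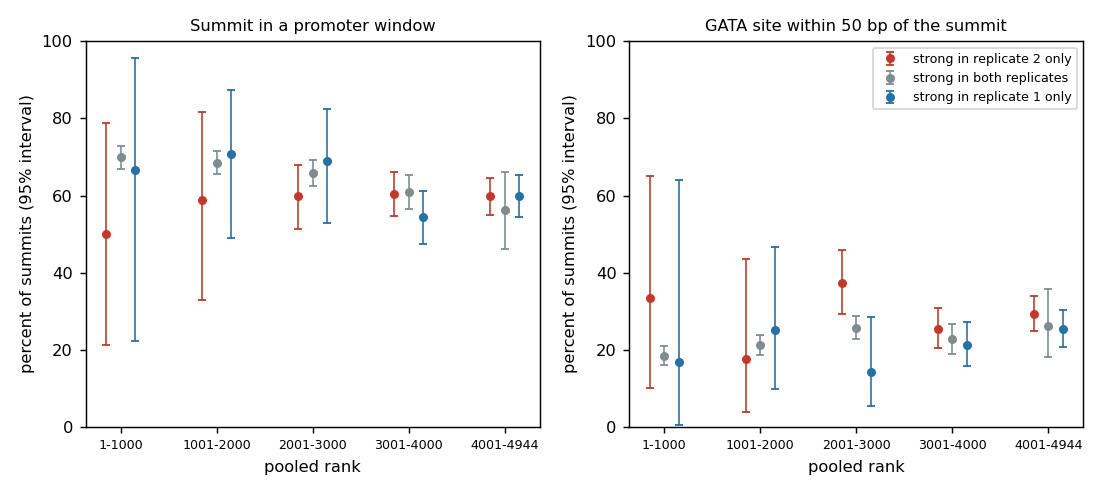
Percent of summits in a promoter window (left) and with a GATA site within 50 bp (right) by pooled rank (x), by class, with exact 95% intervals. From rank 3001 on, the promoter shares of members (60.5% and 59.8%) and shared peaks (61.0% and 56.3%) lie together; only 29 members have ranks up to 2000, so their first 2 intervals are wide.

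The receptor core site was near summits in every class. Both strands were read for 9 motifs in the 101 bases around each summit, and in windows as long centred 500 bp to either side, called flanks; none of the strings named contains another. AGGTCA was found in 71 members (8.11%, 6.39 to 10.1), 7.02% of shared peaks and 7.38% of peaks strong in replicate 1 only. The members' flanks held it in 3.09% of windows, and windows of the same length at annotated protein-coding starts in 2.43%. The reversed string ACTGGA was found in 2.97% of members, so the core site was more frequent than its letters in reverse. The member and shared shares differed by 1.09 points (-0.78 to 3.25). All 71 were clear members; of the 55 edge members, 0 held it (exact interval 0 to 6.49%).

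The GA repeat was also near the summits of both classes. GAGAGA lay in 234 members (26.7%, 23.8 to 29.8), in 27.4% of shared peaks and in 22.3% of those strong in replicate 1 only, against 6.51% of the members' flanks and 7.24% of start windows. Members and shared peaks differed by -0.66 points (-3.88 to 2.72).

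GATAA was more frequent in members than in peaks strong in both replicates or in replicate 1 only. It was singled out of 9 motifs after its values were seen. It lay in 254 members (29.03%, 26.0 to 32.2), 726 shared peaks (21.8%, 20.4 to 23.2) and 140 peaks strong in replicate 1 only (22.95%, 19.7 to 26.5). The members' flanks held it in 22.5% of windows and the start windows in 23.3%, so those classes were near the background and the members above it. The 127 peaks strong in neither replicate had 29.1% (21.4 to 37.9), as much as the members and with a wide interval. The difference from shared peaks was 7.24 points (3.995 to 10.6), and from peaks strong in replicate 1 only 6.08 points (1.53 to 10.5). Within the members' middle pooled ranks it was 5.54 points (-0.48 to 11.4), an interval that includes 0.

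Base composition moved with this motif. The median GC share of the 101-base windows was 41.6% in members, 44.6% in shared peaks and 42.6% in peaks strong in replicate 1 only, and its part in the GATAA shares was not tested. The reversed string AATAG, of the same composition, lay in 22.4%, 20.3% and 21.3% of the classes; members and shared peaks differed in it by 2.08 points (-0.91 to 5.26). CACACA went the other way, with 10.3% of members and 13.6% of shared peaks (difference -3.31 points, -5.51 to -0.85).

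**Figure D4:**
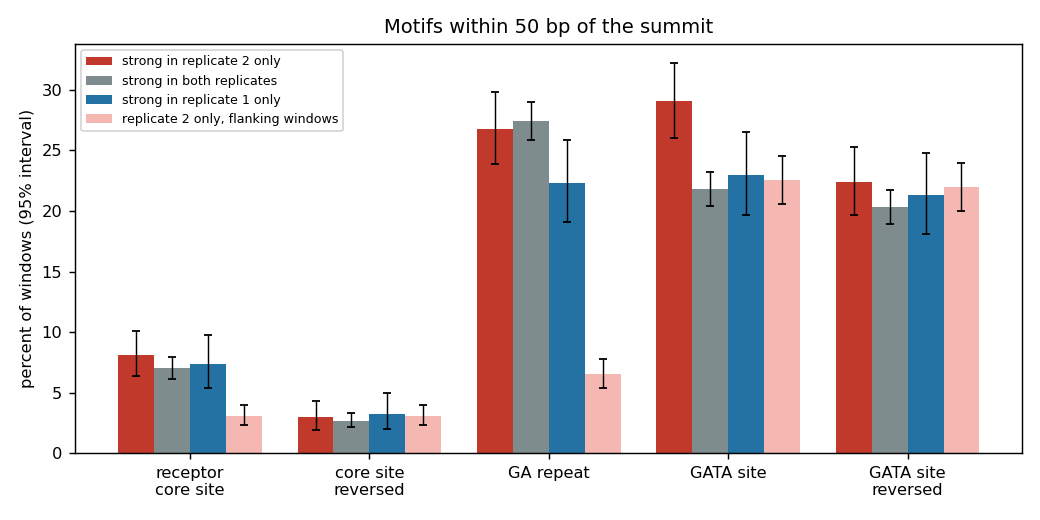
Percent of 101-base windows (y) holding each motif (x) in the 3 classes and in the members' flanking windows, with exact 95% intervals; bars start at 0. The core site is AGGTCA, the GA repeat GAGAGA and the GATA site GATAA; the GATA site is at 29.03% in members and 22.5% in their flanks.

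A member summit lay in the promoter window of 686 of 19973 protein-coding genes (3.43%), and a thresholded summit of any class in that of 3883 (19.4%). A gene's windows are those of all its annotated starts. Of those 3883 genes, 17.7% held a member summit and 74.2% a shared one. For 558 of the 686 genes the members were the only class of thresholded summit in the window. The same held for shared peaks at 2670 of 2883 genes and for peaks strong in replicate 1 only at 339 of 444. Summits of a single class were thus the usual state for each of these classes, and are no trait of the members. Gene lists below are read against the 17.7%; they describe which genes lay near the members, without a test.

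Genes of the molting cycle held both kinds of peak. Of 12 molting genes with any summit, 2 held a member: noah-2, an edge member described above, and let-767, a steroid dehydrogenase-like enzyme, with 31.1 in replicate 2 and 8.30 in replicate 1 at 230 bp upstream. Of 7 molting-cycle regulators with a summit, 3 held members (42.9%, 9.90 to 81.6, which includes 17.7%), and 6 of the 7 (85.7%) held a shared peak. At lin-42, the Period homologue, there were 2 member summits 4808 bp apart, with 37.1 and 27.7 in replicate 2 and 16.7 and 11.5 in replicate 1, beside 2 shared summits. At nhr-25, a nuclear receptor of the FTZ-F1 family, the signals 188 bp upstream were 32.6 and 15.98. At peb-1, a DNA-binding protein needed for molting, they were 24.9 and 14.6, beside 2 shared summits. Among these regulators only nhr-25 had its member with no shared summit in the window.

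The heterochronic genes, which time larval events, gave 3 of 12 with a member (25%, 5.49 to 57.2, which includes 17.7%): lin-42 again, mir-241 and lin-41. The let-7 family microRNA gene mir-241 had 31.1 in replicate 2 and no replicate 1 peak over the summit, 1032 bp upstream, with a shared summit also in the window. The TRIM-NHL gene lin-41 had 23.9 and 14.6 at 1434 bp upstream and no shared summit.

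Cuticle genes held members in some families, with intervals that overlap. Numbered col collagens had a member in 7 of 32 genes with any summit (21.9%, 9.28 to 40.0); after col-176 the strongest were col-147 (39.6 and 16.4) and col-123 (39.1 and 15.2). The 6 annular furrow collagens and 7 other named collagens with summits held 0 members (exact intervals 0 to 45.9% and 0 to 41.0%), and shared peaks held 100% and 85.7% of them. Among 13 cuticlin and precuticle genes 3 held a member: noah-2, the lipocalin gene lpr-3 (27.6 and 17.5) and egg-6 (26.0 and 14.5). The intervals of the col, furrow and other named collagen lists all include 17.7%.

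Nuclear hormone receptor genes had the highest share among lists with at least 20 genes holding a summit. A member lay in the window of 19 of 61 such genes with any summit (31.1%, 19.9 to 44.3), and 18 of the 19 had no shared summit there. Having no shared summit was usual for genes with a member. By a stricter count, 558 of all 686 protein-coding genes with a member had no summit of any other class. Counted by summit, 17 of the list's 70 were members (24.3%, 14.8 to 36.01), an interval that includes the 17.7% of all thresholded peaks. The 19 genes rest on these 17 summits, since nhr-130 and nhr-212 share 1 and nhr-81 and nhr-165 another. All 17 were clear members. The strongest were nhr-21, 41 bp upstream (49.5 in replicate 2, 13.4 in replicate 1), nhr-201 (43.5 and 12.5) and nhr-35 (41.3 and 16.2). At nhr-77 there was no replicate 1 peak over the summit, and at nhr-182 the replicate 1 signal was 4.59 at rank 25929. The list's summits of all classes had a median pooled rank of 2527, close to the 2472 of all thresholded peaks.

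Genes for the core machinery of translation and respiration mostly had shared peaks. Members lay at 2 of 44 large ribosomal subunit genes, rla-2 (25.35 and 17.4) and rpl-3 (24.2 and 9.64), and at 1 of 29 small subunit genes, rps-8 (51.6 and 16.2). The rpl-3 member was in coding sequence 1451 bp upstream of the start, and 2 shared summits also lay in that window. The respiratory chain list had 1 of 26, ucr-1 of complex III (58.4 and 17.6), and splicing factors had 0 of 18 (exact interval 0 to 18.5%). Shared peaks held 97.7%, 93.1%, 92.3% and 94.4% of these 4 lists. Their summits had median pooled ranks of 506, 384, 635.5 and 1278, all stronger than the median of 2472, and members are few at such ranks.

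Other housekeeping lists were nearer the background. Translation factors and tRNA synthetases had members at 6 of 40 genes, all 6 with no shared summit in the window, as was usual for genes with a member. Of these, eif-2beta, eif-2gamma, eif-2Bdelta and eif-2Balpha encode subunits of eIF2, which brings the initiator tRNA, or of its exchange factor eIF2B. Their signals in replicates 2 and 1 were 43.2 and 13.1, 23.8 and 16.8, 30.2 and 10.8, and 28.8 and 15.1, in that order. The other two were the synthetase genes hars-1 (38.5 and 12.4) and dars-1 (22.3 and 13.2). These 6 were listed together after their values were seen. Mitochondrial ribosomal proteins had 5 of 30, led by mrps-6, mrpl-19 and mrpl-51 (31.1, 27.8 and 27.7 in replicate 2). Proteasome subunits had 3 of 26 (pas-5, rpn-8 and rpn-6.1), and chaperones and cyclophilins 6 of 41 with dnj-16, hsp-43 and the chaperonin gene cct-2 first. The mrps-6 and rpn-8 windows share 1 summit.

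Cell cycle genes with a member were 3 of 10 (30%, 6.67 to 65.25), an interval that includes 17.7%. They were fzr-1, an activator of the anaphase-promoting complex (33.9 and 11.6), and the kinase genes cdk-1 (32.8 and 5.61) and cdk-2 (23.5 and 12.7). Each lay 223 bp or less upstream of the start, and none of the 3 had a shared summit, as was usual for genes with a member. At cdk-1 the replicate 1 rank was 21143.

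Tissue marker lists held few thresholded summits of any class. Body wall muscle had members at 2 of 5 genes, the kindlin gene unc-112 (50.4 and 15.2) and the myosin chaperone gene unc-45 (27.4 and 13.4). The intestine had 1 of 2, the vitellogenin gene vit-2 (27.7 and 15.6), and the epidermis 1 of 10, the junction gene dlg-1 (31.1 and 8.31). Neuronal and germ line markers had 0 of 3 each, and no pharyngeal marker had a summit. Numbers of this size give no order among tissues.

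Among small non-coding RNA genes, the tRNA and microRNA lists held members at shares near the background. Of 180 tRNA genes with a summit in the window, 36 held a member (20%, 14.4 to 26.6) and 31 a peak strong in replicate 1 only. Some of these genes share a summit. Counted by summit, 26 of 155 were members (16.8%, 11.3 to 23.6), against 17.7% of all thresholded peaks. Of 69 microRNA genes 12 held a member (17.4%) and 12 a peak strong in replicate 1 only. The strongest members were at mir-228 (59.2, an edge member), mir-8206 (44.99) and mir-58a (39.0, an edge member). Small nucleolar RNA genes gave 11 of 132 (8.33%, 4.23 to 14.4), and 88.6% of them held a shared peak. Their summits had a median pooled rank of 1523, stronger than the 2472 of all thresholded peaks, and members are fewer at such ranks. The background by gene is a share over protein-coding genes only. Chemoreceptor genes gave 5 of 33, 3 of them through edge members alone; the strongest was str-144 (58.6 and 12.7).

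The remaining lists held single members or few. Vesicle trafficking had 3 of 42 genes, the sorting nexin gene snx-3 (42.7 in replicate 2 and 7.78 in replicate 1), vps-33.2 (24.2 and 13.5) and, as an edge member, sec-61.G (23.1). Neuropeptides had 2 of 12, nlp-56 (34.5 and 15.4) and nlp-24 (34.6 and 17.1), and excitable-cell channels and receptors 2 of 13, the potassium channel gene twk-10 (30.8 and 7.33) and lgc-22 (27.1 and 17.6). A single gene each came from the patched-related (ptr-10), hedgehog-related (grl-26), astacin (nas-4), vacuolar ATPase (vha-14), vulval signalling (sos-1), F-box (fbxa-167), histone (his-42) and bHLH (hlh-30) lists. Homeobox genes had 0 of 6 and C-type lectins 0 of 5. The exact interval of each of these lists includes 17.7%.

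Few genes had several members: 12 held 2 or more member summits over the windows of all their annotated starts. In 4 of the 12 the summits lay farther apart than the 2000 bp of 1 window, as at K10C3.4 (4894 bp), lin-42 (4808 bp) and C39E9.8 (2975 bp). After nurf-1, dmd-7 and K10C3.4 the strongest were gly-11, a glycosyltransferase gene (53.9 and 28.2 in replicate 2 for its 2 summits), and C39E9.8 (49.5 and 20.6). Others were F17C11.11, chpf-1, the Tousled-like kinase gene tlk-1 and sma-3, a Smad of the body-size pathway, whose 2 summits had 33.2 and 28.4 and lay 872 bp apart. At gly-11, K10C3.4, F17C11.11, chpf-1 and sma-3 no shared summit lay in any window of the gene.

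**Figure D5:**
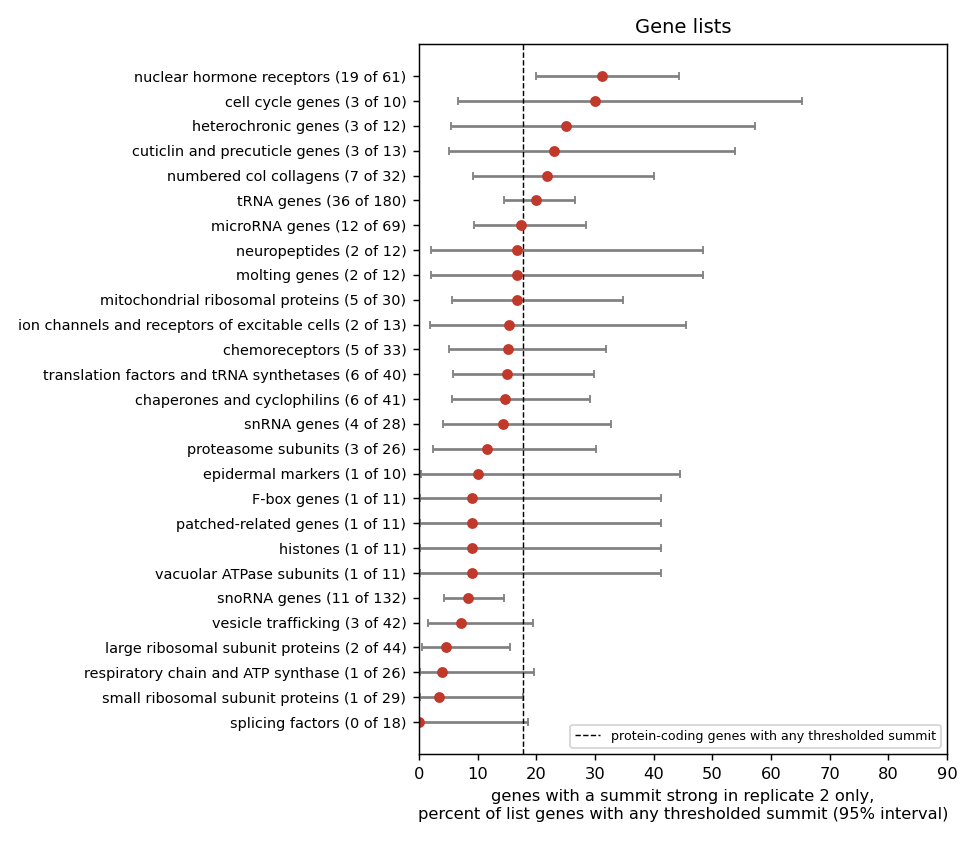
Gene lists with at least 10 genes holding any thresholded summit (y), and the percent of those genes with a member summit (x), with exact 95% intervals and counts in brackets; the dashed line is the 17.7% over all protein-coding genes with a summit. Nuclear hormone receptors are at 31.1% and splicing factors at 0.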

How the data were processed

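The data are peak lists on ce11 and ce10 for each of 2 replicates of 1 group, for both pooled, and a thresholded list. Per the deposited text files, the authors called peaks against a control and derived the thresholded list by an irreproducible discovery rate (IDR) procedure. The 4944 thresholded peaks were the 4944 strongest of the pooled list, so a member's place among them followed its pooled signal. The aligner, peak caller, IDR threshold and their versions were not given in the sources used here. The signal deposited by the authors is the peak caller's own value per peak and was used to rank, filter or describe peaks. Ranks and filters were applied within a list. Where signals of the 2 replicates are set side by side, they come from separate lists and are a description. Their gap is not a measured difference in binding. The lists carry no read counts, so depth is unknown.

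Summits were classed by the 4944 strongest peaks of each replicate list. Locations came from Ensembl release 115 and sequence from RefSeq on the same assembly; peak ends fitted the chromosome lengths. Because of trans-splicing, an annotated start may lie downstream of the true one. Shares have exact Clopper-Pearson 95% intervals and differences Newcombe intervals. No significance test was run, because 1 group allows none between conditions and the members were chosen on their signal. The code was tested on simulated peaks. The members, 45 gene lists, 9 motifs and the rule for named genes were chosen with earlier results of these data known. That rule took the 20 strongest members' nearest genes, up to 3 genes per list (all for molting and heterochronic lists), peaks at the thresholds, genes with several members and the 10 strongest members without a replicate 1 peak over the summit. The split into edge and clear members, the 12 strongest clear members, genes named beyond the rule, list shares by summit and the like-rank values of the other locations were chosen after seeing values. Python 3.11.15, pandas 2.3.3 and scipy 1.17.1 were used.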

Additional observations from a re-analysis of the deposited data

How the results depend on the processing

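Of 91 alternatives over the results with an interval or a count, 77 stayed inside the interval of the value given or within 1.5 times a count. In all, 10 changed sign, 5 of them for differences whose interval excluded 0. The promoter difference (members minus shared, percentage points) became 1.95 within the members' middle pooled ranks, 2.95 there for clear members, and 0.71 against peaks strong in replicate 1 only. The coding difference became -0.15, 0.0375 and -1.59 under the same 3 settings. Against peaks strong in replicate 1 only, the intron difference was -2.29 and the GAGAGA difference 4.45. GAGAGA also changed sign with the 2472 strongest peaks (1.59) and for clear members at the middle ranks (0.44), and AGGTCA within 100 bp of the summit (-0.36). With the 2472 strongest peaks of each list, the coding difference was 1.07, with an interval (-0.07 to 2.59) that includes 0, the intron difference 4.55, with one (0.99 to 8.30) that excludes it, and the GATAA difference 10.9. A window of 3000 bp upstream gave a promoter difference of -3.92. Defining the class from replicate 1's threshold alone gave 1002 members, with promoter, coding and GATAA differences of -6.76, 3.02 and 7.25. Replicate 2's threshold alone gave 4207, which include the 3332 shared peaks they are compared with. Their differences of -1.45, 0.57 and 1.51 are therefore smaller by construction and do not show a dependence on processing. On ce10, with 4967 peaks per list, 872 members were found, and counting any overlap of 1 bp in place of the summit left 823. The GATAA alternatives and those on clear members were chosen after seeing the data. Apart from that overlap, the cause of these shifts was not tested. No paired analysis was possible because the 2 replicates form 1 group. The depth of each replicate is unknown, which limits what a weaker signal shows.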
